A study of Rattus norvegicus with 164 samples.

Results

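The clustered protocadherin genes of rat chromosome 18 were described in brain RNA of the prelimbic cortex, which lies in the medial prefrontal cortex. They were taken as all genes of the deposited table whose symbol is Pcdha, Pcdhac, Pcdhb, Pcdhga, Pcdhgb or Pcdhgc with a number, that lie on chromosome 18 and that were above 0 in at least 1 library. These were 36 of 38354 genes: 1 alpha gene, 20 beta genes, 11 gamma-A genes, 2 gamma-B genes and 2 gamma-C genes. They run along the plus strand over chr18:28688274-29919098 in the GRCr8 build, alpha first, then beta, then gamma. No Pcdhac symbol was among them. The alpha gene, Pcdha4, stands for the whole alpha locus, since RefSeq lists 14 other alpha names as its synonyms and gives it 22 transcripts. Pcdhb6l and Pcdhb16l lie between the beta genes but have symbols of another form and were not included.

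Each library came from a heterogeneous stock rat, an outbred line descended from several inbred strains, and no treatment, age, sex or batch is given in the sources used here. Animal identifiers divide the libraries into 68 with a decimal number, 11 whose E21DCD code was changed after a genotype mismatch, and 51 whose E21DCD code was kept. They are called decimal, reassigned and E21DCD libraries. The identifier is the one label that divides them, and the labels do not say what it stands for. Nothing says how tissue was pooled or dissected, so p-values measure the spread between these libraries.

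Summed estimated counts per library were 15.1 to 55.95, with a median of 25.8, in units of 1000000. Levels are log2 of CPM (counts per 1000000 counts of the library) plus 1 throughout. The tissue label was checked against marker lists. In 112 libraries the mean level was 7.00 to 7.48 for glutamatergic markers of the cortex and 3.98 to 5.80 for striatal markers. In 11 decimal libraries, called striatal-like, the means were 2.19 to 4.92 for glutamatergic and 8.57 to 9.10 for striatal markers, which goes against the label. Another 7 libraries, decimal replicate 15 and E21DCD replicates 2, 4, 8, 19, 30 and 49, lay at one end of the first principal component of the rest. Values that rest on these 18 libraries are given with and without them.

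Clustered protocadherins are cell-surface proteins of the cadherin superfamily. In mouse neurons each cell reads a small, largely random choice of the alpha, beta and gamma promoters, which involves the DNA-binding protein CTCF and the cohesin ring, while the C-type genes are read more evenly. The proteins bind like with like between cells, and the combination a neuron carries lets its branches tell themselves from those of other neurons. Alpha and gamma genes each join their own first exon to constant exons shared by the cluster, whereas each beta protein comes from its own single exon.

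The windows of 250 bases before the annotated start show the promoter ends of the 5 genes whose levels the results below turn on. They are from RefSeq, GRCr8, plus strand. Capitals mark GGTGGCGCTGCAG, a stretch of 13 bases that several beta windows share and that holds CGCT, the core of the conserved element of these promoters. It is the longest run of bases found in the windows of at least 10 of the genes, and was looked for after the windows had been read. The positions are chr18:29302216-29302465 for Pcdhb5, chr18:29320141-29320390 for Pcdhb6, chr18:29339226-29339475 for Pcdhb8, chr18:29379060-29379309 for Pcdhb9 and chr18:29738389-29738638 for Pcdhga1.

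Pcdhb5: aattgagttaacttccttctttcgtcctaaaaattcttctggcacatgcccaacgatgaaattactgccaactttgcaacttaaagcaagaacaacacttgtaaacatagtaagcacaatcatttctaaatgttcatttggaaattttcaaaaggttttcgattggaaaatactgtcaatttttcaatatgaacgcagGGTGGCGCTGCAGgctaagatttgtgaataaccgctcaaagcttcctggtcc

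Pcdhb6: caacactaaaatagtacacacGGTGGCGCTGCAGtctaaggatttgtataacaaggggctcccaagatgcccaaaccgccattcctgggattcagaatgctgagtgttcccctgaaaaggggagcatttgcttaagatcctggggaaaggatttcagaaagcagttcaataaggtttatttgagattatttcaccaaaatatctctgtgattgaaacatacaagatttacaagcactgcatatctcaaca

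Pcdhb8: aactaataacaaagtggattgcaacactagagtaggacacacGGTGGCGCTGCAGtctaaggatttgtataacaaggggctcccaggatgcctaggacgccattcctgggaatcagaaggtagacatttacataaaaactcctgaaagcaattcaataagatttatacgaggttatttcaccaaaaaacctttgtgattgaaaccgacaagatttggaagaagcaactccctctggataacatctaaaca

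Pcdhb9: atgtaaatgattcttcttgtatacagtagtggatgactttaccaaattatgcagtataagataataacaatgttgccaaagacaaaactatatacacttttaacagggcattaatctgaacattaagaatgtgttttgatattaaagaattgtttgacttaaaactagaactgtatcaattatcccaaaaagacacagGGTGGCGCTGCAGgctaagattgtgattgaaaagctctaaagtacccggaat

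Pcdhga1: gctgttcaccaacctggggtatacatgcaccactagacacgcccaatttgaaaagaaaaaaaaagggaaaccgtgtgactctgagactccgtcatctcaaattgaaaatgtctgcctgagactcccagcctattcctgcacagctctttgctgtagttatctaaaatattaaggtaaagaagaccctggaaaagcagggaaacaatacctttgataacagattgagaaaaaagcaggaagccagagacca

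A window was found for 32 of the 36 genes, those of Pcdhb11, Pcdhb17, Pcdhb22 and Pcdhgb7 being missing. CGCT, on either strand and overlaps counted, was in 27 of the 32 (84.4%), against 55.1% of all 33469 windows of the same length. It was not in those of Pcdhb15, Pcdhb16, Pcdhga1, Pcdhga4 and Pcdhgc5. The longer stretch was in 12 of the 33469 windows (0.0359%). Of these, 11 belong to beta genes (Pcdhb2, Pcdhb4, Pcdhb5, Pcdhb6, Pcdhb7, Pcdhb8, Pcdhb9, Pcdhb12, Pcdhb14, Pcdhb19 and Pcdhb21), or 34.4% of the 32, and the other to Dnajb2. The stretch was chosen for being in the windows of at least 10 of the genes, so its share among them follows from that choice. It began 46 to 98 bases before the start, except 229 bases before that of Pcdhb6 and 208 before that of Pcdhb8. The windows of Pcdhb6 and Pcdhb8 were the most alike of 465 pairs from 31 genes, with 67.3% of aligned positions identical, against a median of 48.9%. Pcdhb5 and Pcdhb9 shared 59.8%. A match in these windows is a description and says nothing about binding.

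The C-type genes and the alpha locus gave the highest levels. Pcdhgc3, whose protein binds the Wnt pathway scaffold Axin1 in mouse, had a lowest level of 6.72, a median of 8.07 and a highest of 9.06 over the 130 libraries (mean 8.12 ± 0.26, SD). Pcdhgc5, whose protein associates with GABA-A receptors, had 2.35, 7.02 and 7.47 (mean 6.84 ± 0.72). Pcdha4 had 6.38, 7.77 and 7.97 (mean 7.71 ± 0.24). Each of the 3 was detected in every library, and their low ends came from few libraries. In the 7 libraries at the end of the first component Pcdhgc5 had 2.35, 4.20 and 5.40, against 6.20, 7.02 and 7.35 in the 112 other libraries, with no overlap. Those 7 were set apart by the expression of all genes tested, Pcdhgc5 among them. How many other genes separate the same way was not counted.

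The gamma-A and gamma-B genes lay lower. Pcdhga2 had a mean of 5.80 ± 0.44 and Pcdhga7 of 5.57 ± 0.59, the highest of the gamma-A genes. Pcdhgb8 had 5.40 ± 0.34 and Pcdhgb7 5.24 ± 0.34. Pcdhga5 (3.44 ± 0.56) and Pcdhga1 (2.84 ± 1.32) were the lowest gamma-A genes. Pcdhga1 had the widest spread of all: its lowest level was 0.82, its median 2.55 and its highest 8.43, the last in E21DCD replicate 49. These are levels per gene and are not divided by length, because no transcript lengths were used here.

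Of the beta genes, Pcdhb22 (3.61 ± 0.43) and Pcdhb9 (3.61 ± 0.38) had the highest levels. Pcdhb2 (1.04 ± 0.34) was low, and Pcdhb1 was at 0 in 98 of 130 libraries with a highest level of 0.32. A count of 0 there allows up to 3 counts per library. Pcdhb1 alone had a mean under 1 and was left out of the tests, so 35 genes were tested. Beta genes with 1 annotated transcript can be compared per length, as median CPM per kb of genomic span. Pcdhb5 had the most with 4.03, then Pcdhb9 with 3.70, Pcdhb19 with 2.66 and Pcdhb14 with 2.27. Pcdhb8 had 1.93, Pcdhb7 1.92 and Pcdhb6 1.57. Pcdhb21 with 0.406 and Pcdhb2 with 0.393 were at the low end above Pcdhb1. The steps between these genes were not tested. Levels of Pcdhb5 and Pcdhb9 had SDs of 0.51 and 0.38 log2 between libraries, which do not measure a step between genes of the same library. The order of genes with close values is thus a description.

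**Figure D1:**
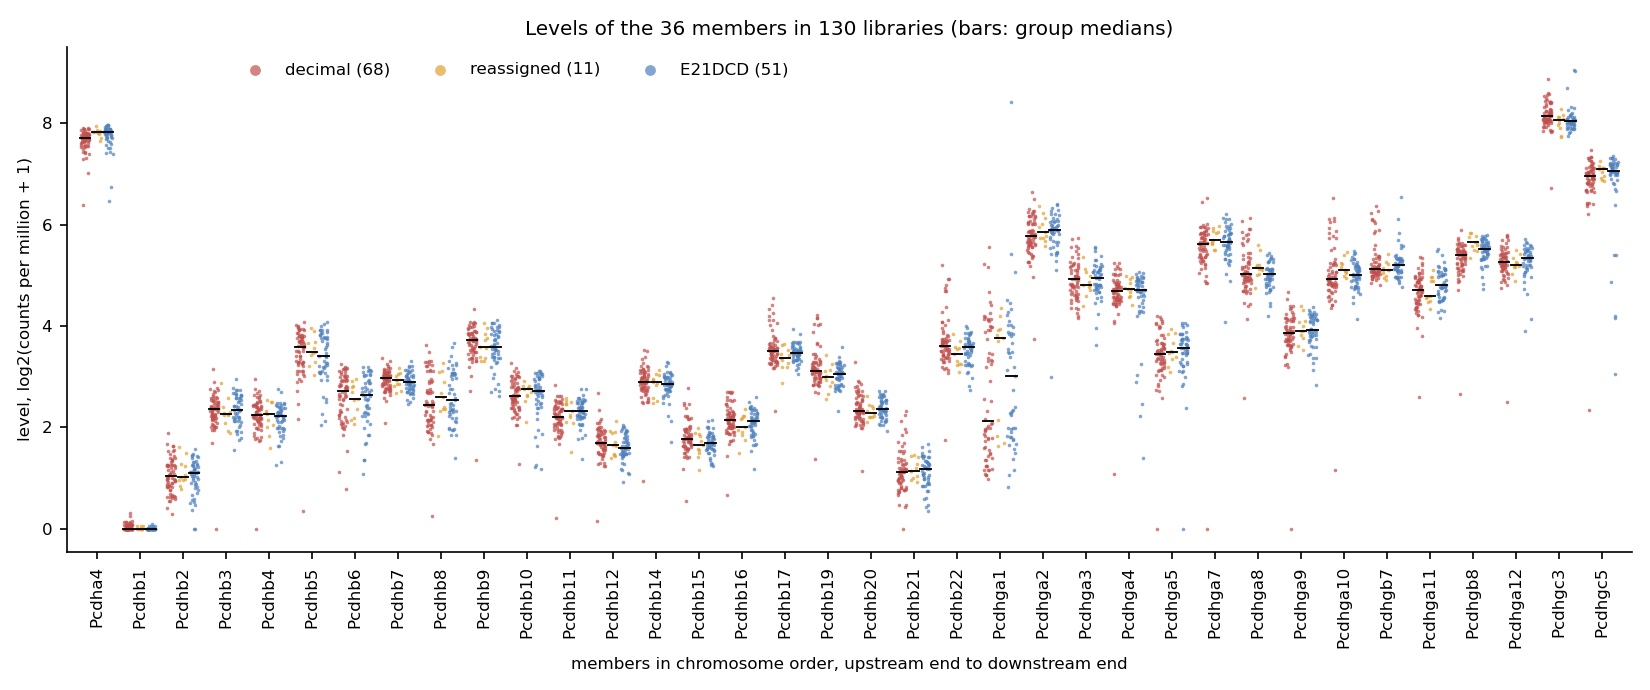
Level of each of the 36 genes in every library, in chromosome order along the horizontal axis, with log2 of CPM plus 1 on the vertical axis. Points are libraries, decimal, reassigned and E21DCD from left to right within a gene, and bars are group medians. Pcdhgc3, Pcdha4 and Pcdhgc5 stand highest, and Pcdhga1 has the widest spread.

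Of all counts assigned to the 36 genes, the median share was 71.2% for the gamma genes, 19.4% for the alpha locus and 9.54% for the beta genes. Within the gamma cluster the shares were 35.1% for gamma-C, 28.8% for gamma-A and 7.03% for gamma-B. The summed level of all 36 genes ran from 9.95 to 10.25 in the 112 libraries, with an SD of 0.063. Over all 130 libraries the SD of this sum was 0.189. No sum of other genes was set beside it, and the genes with most counts weigh most in it. The alpha locus had an SD of 0.154 and the summed beta genes 0.121 in the 112 libraries, and the summed gamma genes 0.064. Pcdhga1 alone had an SD of 1.13.

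How reads were split between similar genes bears on these levels. Among values of at most 1000 counts, Pcdhb2 had an estimated count within 0.01 of a whole number in 98.4% of libraries and Pcdhb4 in 41.9%, and most other beta genes lay between them. For Pcdhb6 the share was 10.0%, for Pcdhb8 17.7%, for Pcdhb20 23.8%, for Pcdhb22 35.2% and for Pcdhb5 37.7%. Among gamma genes with values it was 0 to 4.35%. An estimated count can fall between whole numbers where reads are divided between transcripts, and gamma genes share constant exons, so the levels of single gamma genes and of Pcdhb6 and Pcdhb8 are less certain than those of most beta genes. The part of divided reads in these shares was not tested.

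In the striatal-like libraries most of the cluster was higher. The summed level of all 36 genes was 10.23, 10.37 and 10.48 in them (lowest, median and highest), against 9.95, 10.13 and 10.25 in the 112 other libraries, with a slight overlap. The summed gamma genes had 9.80, 9.97 and 10.04, against 9.49, 9.64 and 9.78, and the summed beta genes 6.91, 7.19 and 7.40, against 6.43, 6.76 and 7.01. The alpha locus was not higher, with 7.40, 7.66 and 7.78, against 7.01, 7.79 and 7.97. The median was higher in striatal-like libraries for 27 of the 35 genes (77.1%), against 54.3% of the 15150 genes tested. The steps were unequal. Pcdhb22 had 4.08, 4.70 and 5.21 in striatal-like libraries, against 3.07, 3.58 and 4.08 in the others. Pcdhgb7 had 5.60, 6.08 and 6.37, against 4.77, 5.11 and 5.57. Pcdhga10 had 5.73, 5.93 and 6.53, against 4.36, 4.96 and 5.54. Pcdhb19 had 3.44, 4.02 and 4.22, against 2.55, 3.07 and 3.58. For Pcdhgb7 and Pcdhga10 the ranges did not overlap, while for Pcdhb22 and Pcdhb19 they overlapped at the edge. The share of all genes tested whose ranges did not overlap was not counted, so this is a description of single genes. Pcdhgb8 also had a lower median, with 4.71, 5.02 and 5.41 in striatal-like libraries, against 5.01, 5.49 and 5.89. These libraries were set apart by their own expression, so no test was made.

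At the end of the first component other genes were low. Those libraries were also set apart by their own expression, so no test was made. Pcdhga4 had 1.08, 2.46 and 3.26 in those 7 libraries, against 4.06, 4.70 and 5.25 in the 112. Pcdhb10 had 1.17, 1.28 and 2.17, against 1.63, 2.73 and 3.27. Pcdhgc3 was not low there, with 6.72, 8.21 and 9.06, against 7.72, 8.06 and 8.87. The lowest values of many genes came from decimal replicate 15, in which Pcdhb3, Pcdhb4, Pcdhb21, Pcdhga5, Pcdhga7 and Pcdhga9 were at 0 and Pcdhgc5 was at 2.35.

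An SD of at least 2 times that of genes of like level was found for 6 of 35 genes, against 7.54% of all 15150 genes tested: Pcdhga1 (ratio 4.45), Pcdhgc5 (2.92), Pcdhga4 (2.49), Pcdhga7 (2.48), Pcdhga10 (2.13) and Pcdhga5 (2.01). There were also 6 without the striatal-like libraries, against 4.62%, and 6 with median-of-ratios scaling, against 8.17%. Without the 18 libraries there were 4, against 5.03%. Pcdhga1 had 4.98 there, and the others were Pcdhb8 (2.12), Pcdhb5 (2.03) and Pcdhb6 (2.02). So the wide spread of Pcdhgc5, Pcdhga4, Pcdhga7, Pcdhga10 and Pcdhga5 fell under the limit without those libraries, and that of Pcdhga1 did not.

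Separated levels were looked for with a mixture of 2 normal distributions. A gene was called where the fit improved by at least 10 in BIC, its levels lay 4 or more SDs and 1 or more log2 units from each other, and neither held under 5% of libraries. Over all 130 libraries 3 of 35 genes were called, against 11.1% of 14632 autosomal genes. Pcdhga4 had means of 2.33 and 4.71 with 5.38% of libraries in the lower part, and Pcdhb10 had 1.46 and 2.68. Pcdhb22 had 3.53 and 4.80 with 6.00% in the upper part. Without the striatal-like libraries Pcdhb10 and Pcdhga4 were called, against 4.85% of genes, and without all 18 libraries none of the 3 was.

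Without the 18 libraries Pcdhga1 was the 1 gene called, against 0.765% of autosomal genes (112 of 14632). Its means were 1.70 and 3.79, a gap of 2.09 log2 or 4.99 SDs of 0.42, with 45.8% in the upper part. Over all 130 libraries its gap of 2.26 was 3.38 SDs and the BIC fell by 8.82, short of both limits, and it was not called. In decimal libraries alone it was the 1 gene called, against 8.82% of genes. In E21DCD and reassigned libraries together it was not called, since the mixture set apart the library with 8.43, while Pcdhb10, Pcdhga4 and Pcdhgc5 were, against 6.49% of genes. Split at 2.76, where the fitted distributions give either level the same weight, the lower level held 61 of the 112 libraries (0.82 to 2.74, median 1.77) and the upper 51 (2.91 to 4.51, median 3.87). Between 2.4 and 3.1 lay 5 libraries. The upper level held 22 of 56 decimal (39.3%), 7 of 11 reassigned (63.6%) and 22 of 45 E21DCD libraries (48.9%). Each group thus held both levels. Of the libraries set aside, 7 of 11 striatal-like ones and 5 of 7 at the end of the first component were at or over 2.76.

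**Figure D2:**
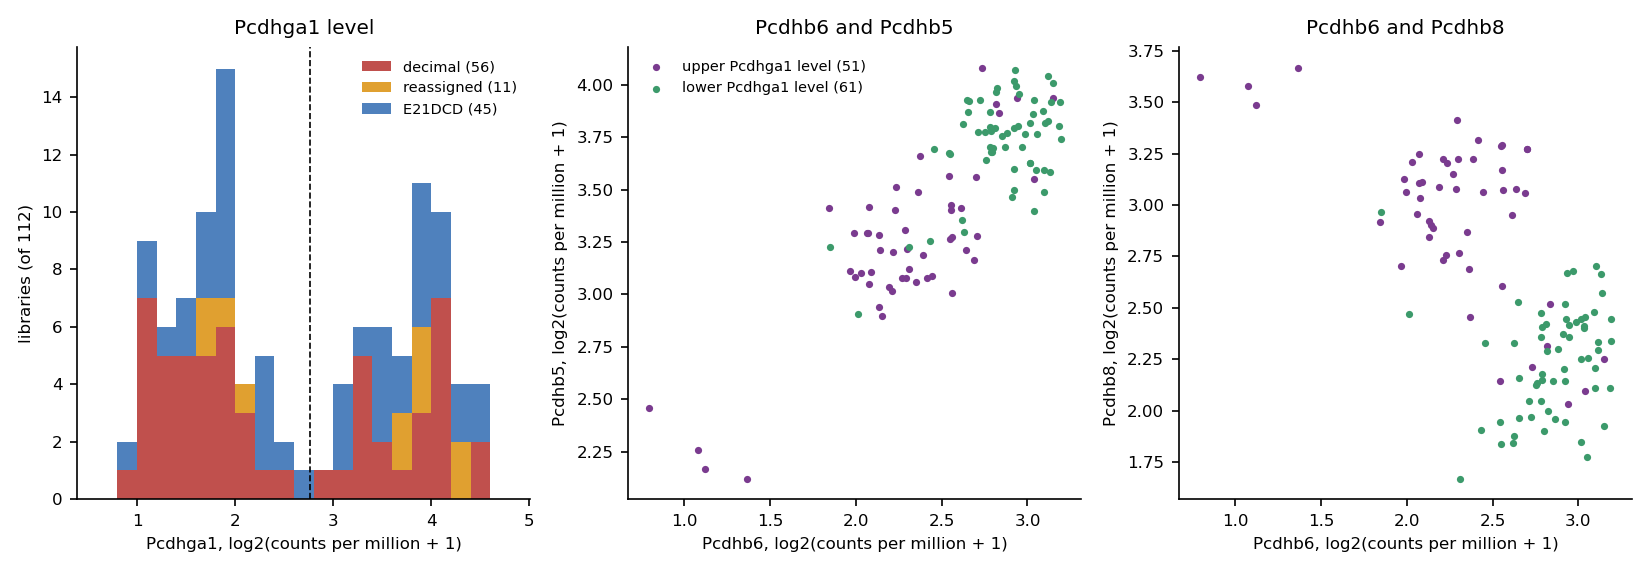
Left, number of libraries (vertical axis) by level of Pcdhga1 (log2 of CPM plus 1) in the 112 libraries, stacked by decimal, reassigned and E21DCD, with a dashed line at 2.76. Middle and right, levels of Pcdhb5 and Pcdhb8 against Pcdhb6 in the same libraries, coloured by the upper (51 libraries) or lower (61 libraries) level of Pcdhga1; the Pcdhb5 points climb with Pcdhb6 and the Pcdhb8 points descend.

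Correlation along the cluster was measured on residuals after removing 10 principal components of the other genes, over the 119 libraries that were not striatal-like. Of 34 neighbouring pairs, 13 were positively and 4 negatively correlated (adjusted permutation p under 0.05), and 2 of these 17 pairs hold Pcdhga1. By size, 9 of 34 had r of at least 0.3 and 2 had r of -0.3 or less, against 4.98% and 1.88% of 14612 neighbouring pairs of autosomal genes. The mean r was 0.11, against 0.03. These are descriptions: genes next to each other here also share sequence and, in the gamma cluster, exons.

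The highest r was that of Pcdhb5 and Pcdhb6 (r = 0.84, rho = 0.82, adjusted p 6.8e-05 over the 34 pairs, raw permutation p 1e-05, the smallest the permutations can give). Without the 2 libraries farthest from the median r was 0.81. It was 0.89 in decimal libraries and 0.86 in E21DCD and reassigned libraries together. Next came Pcdhb9 and Pcdhb10 (r = 0.48, rho = 0.46, adjusted p 6.8e-05, 0.47 without the 2), then Pcdhga8 and Pcdhga9 (r = 0.40, rho = 0.40, adjusted p 6.8e-05, 0.42 without the 2). Pcdhga10 and Pcdhgb7 had r = 0.36 (rho = 0.31, adjusted p 0.00017, 0.32 without the 2), and Pcdhb4 and Pcdhb5 had r = 0.36 (rho = 0.36, adjusted p 0.000631, 0.29 without the 2). In decimal libraries and in E21DCD and reassigned libraries together, r was 0.52 and 0.36 for Pcdhb9 and Pcdhb10 and 0.32 and 0.52 for Pcdhga8 and Pcdhga9. It was 0.20 (adjusted p 0.201) and 0.46 for Pcdhga10 and Pcdhgb7, and 0.50 and 0.25 (adjusted p 0.134) for Pcdhb4 and Pcdhb5, so each of these 2 pairs passed in 1 of the subsets. With no component removed Pcdhga10 and Pcdhgb7 had 0.04 (adjusted p 0.647). Without the 18 libraries r was 0.85 for Pcdhb5 and Pcdhb6, 0.47 for Pcdhb9 and Pcdhb10 and 0.36 for Pcdhga8 and Pcdhga9. It was then 0.33 for Pcdhga10 and Pcdhgb7 and 0.38 for Pcdhb4 and Pcdhb5. Within the lower and the upper level of Pcdhga1, r was 0.60 and 0.85 for Pcdhb5 and Pcdhb6, but 0.52 and 0.08 for Pcdhb9 and Pcdhb10.

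The lowest r was that of Pcdhb8 and Pcdhb9 (r = -0.72, rho = -0.71, adjusted p 6.8e-05, -0.69 without the 2 farthest libraries). It was -0.76 in decimal libraries and -0.73 in the others, but -0.13 with no component removed (adjusted p 0.191). Pcdhga1 and Pcdhga2 were also among the lowest, but since Pcdhga1 has separate levels their r is given within them, as -0.29 in the lower and -0.13 in the upper. Pcdhgb7 and Pcdhga11 had r = -0.26 (rho = -0.27, adjusted p 0.00947, -0.24 without the 2), and Pcdhga11 and Pcdhgb8 had -0.26 (rho = -0.24, adjusted p 0.0131, -0.21 without the 2). In decimal libraries and in the others, r was -0.20 (adjusted p 0.201) and -0.38 for Pcdhgb7 and Pcdhga11, and -0.26 (adjusted p 0.133) and -0.20 (adjusted p 0.232) for Pcdhga11 and Pcdhgb8. Pcdhga7 and Pcdhga8 had -0.19 (rho = -0.20, adjusted p 0.0692, -0.18 without the 2), which did not pass. That pair did pass without the 18 libraries (r = -0.30, adjusted p 0.00328) and with 20 components removed (r = -0.28, adjusted p 0.00547). Without those 18 libraries r was -0.72 for Pcdhb8 and Pcdhb9, -0.30 for Pcdhgb7 and Pcdhga11, and -0.28 for Pcdhga11 and Pcdhgb8.

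Pairs farther apart held a group of 5 genes: Pcdhb5, Pcdhb6, Pcdhb9 and Pcdhga11 went together and Pcdhb8 went against them. The group was not closed, and other genes joined either side with smaller r. Pcdhb11, Pcdhga7 and Pcdhb3 had r of 0.525, 0.486 and 0.474 with Pcdhb8 and negative r with each of the others. On the other side, Pcdhga2 had r of -0.477 with Pcdhb8 and positive r with each of the others. Of all 595 pairs, 64 had r of at least 0.3 and 45 had r of -0.3 or less, against 3.09% and 1.55% of 209045 pairs of autosomal genes that lie no farther apart than these genes do. The smallest p adjusted over the 595 pairs was 0.000142, reached by every pair in the next sentences. Pcdhb5 and Pcdhb9 had r = 0.76 (rho = 0.73) and Pcdhb6 and Pcdhb9 had r = 0.71 (rho = 0.66). Pcdhga11, over 500 kb further on, had r = 0.64 with Pcdhb5 (rho = 0.61) and r = 0.65 with Pcdhb6 (rho = 0.59). Pcdhb8 had r = -0.83 with Pcdhb5 (rho = -0.82), r = -0.76 with Pcdhb6 (rho = -0.77) and r = -0.67 with Pcdhga11 (rho = -0.67). Leaving out the 2 farthest libraries left these r between 0.59 and 0.72 where positive and between -0.66 and -0.81 where negative. Within the lower and upper level of Pcdhga1, r was -0.49 and -0.80 for Pcdhb5 and Pcdhb8, -0.40 and -0.73 for Pcdhb6 and Pcdhb8, and -0.26 and -0.49 for Pcdhb8 and Pcdhga11. It was 0.58 and 0.75 for Pcdhb5 and Pcdhb9, 0.26 and 0.79 for Pcdhb6 and Pcdhb9, 0.36 and 0.47 for Pcdhb5 and Pcdhga11, and 0.30 and 0.59 for Pcdhb6 and Pcdhga11. In the lower level some of these were thus under 0.5 times the r over all libraries. With no component removed the negative r shrank to -0.21 for Pcdhb8 with Pcdhb5, -0.43 with Pcdhb6 and -0.21 with Pcdhga11, while the positive r above were between 0.58 and 0.88. The same sign was seen in decimal libraries and in the others for each of these pairs.

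The values of 4 libraries, picked for low Pcdhb6 and high Pcdhb8, show how far these levels go and are no support for the correlation. In decimal replicate 17 the levels were 2.17 for Pcdhb5, 1.12 for Pcdhb6, 2.71 for Pcdhb9 and 3.48 for Pcdhb8. In E21DCD replicate 22 they were 2.12, 1.36, 2.97 and 3.67 in the same order of genes. Across the 112 libraries the medians were 3.59 for Pcdhb5, 2.70 for Pcdhb6, 3.72 for Pcdhb9 and 2.46 for Pcdhb8. Both libraries were thus low in the first 3 genes and high in Pcdhb8. Decimal replicate 18 and E21DCD replicate 5 were alike, with Pcdhb6 at 0.79 and 1.08 and Pcdhb8 at 3.62 and 3.58. In the order named, the Pcdhga1 levels of the 4 were 4.15, 4.46, 4.14 and 4.33, all in the upper level. Pcdhb6 and Pcdhb8 also had the most alike windows and low shares of whole counts, and the part of reads divided between them in their r was not tested.

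**Figure D3:**
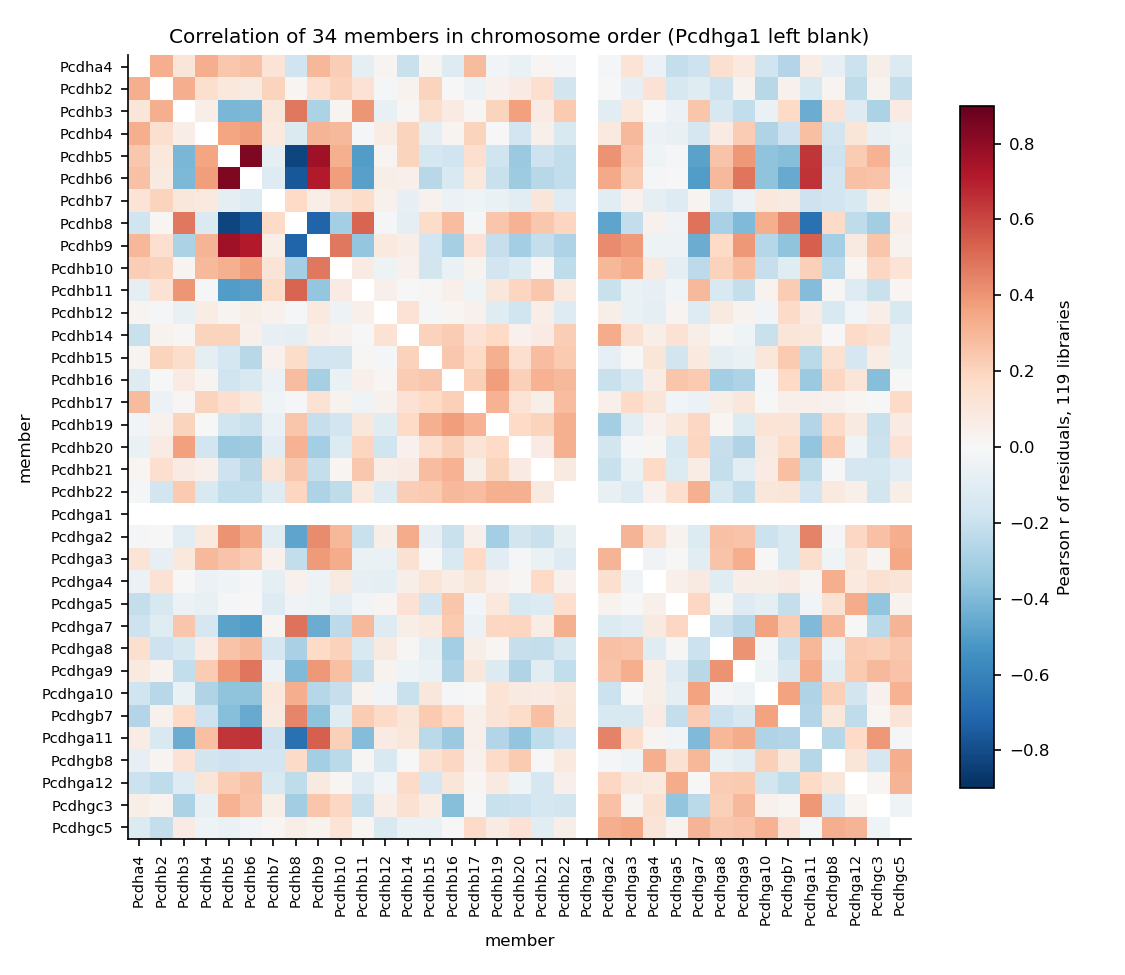
Pearson r of residuals for each pair of 34 genes in 119 libraries, genes in chromosome order on both axes, red positive and blue negative, with Pcdhga1 left blank. Pcdhb5, Pcdhb6, Pcdhb9 and Pcdhga11 are red with each other, and the row of Pcdhb8 is blue against them. The rows of Pcdhb3, Pcdhb11 and Pcdhga7 are blue against them more faintly.

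Mean r was small within and between the sets: 0.05 among beta genes (171 pairs), 0.04 among gamma genes (105 pairs), 0.00 between beta and gamma genes (285 pairs) and 0.02 between Pcdha4 and the others (34 pairs). With no component removed the means were 0.38, 0.29, 0.30 and 0.46. Mean r was 0.07 for pairs up to 10 kb apart, 0.05 from 10 to 50 kb, 0.07 from 50 to 100 kb and 0.01 from 100 to 250 kb. It was -0.00 from 250 to 500 kb and beyond. The mean size of r, regardless of sign, was 0.24 up to 10 kb and 0.17 from 250 to 500 kb, so pairs of either sign were found at every distance.

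Within its lower level, Pcdhga1 went against Pcdhb6 (r = -0.58, rho = -0.52, adjusted permutation p 0.00017 over 34 pairs, 61 libraries), Pcdhb5 (r = -0.55, rho = -0.43, adjusted p 0.00017) and Pcdhga11 (r = -0.46, rho = -0.33, adjusted p 0.00306). Without the 2 farthest libraries these were -0.47, -0.41 and -0.34. Within its upper level, of 51 libraries, r was -0.31 for Pcdhb6 (rho = -0.23, adjusted p 0.191), -0.30 for Pcdhb5 (rho = -0.29, adjusted p 0.191) and -0.28 for Pcdhga11 (rho = -0.17, adjusted p 0.191). No pair passed there, the lowest adjusted p being 0.087 for Pcdhga7 (r = 0.42, rho = 0.40).

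Of 14631 other autosomal genes, 2 had r of at least 0.3 in size and of the same sign with Pcdhga1 in both levels: Pcdhb5 and Pcdhb6. At 0.25 there were 10, of which 5 were clustered protocadherins, 1 lay within 1500 kb and 4 lay elsewhere. The limit of 0.3 set on Pcdhb6 gave 8 genes. Of these, 4 were clustered protocadherins (Pcdhb5, Pcdhb8, Pcdhga1 and Pcdhb11), 3 lay within 1500 kb and 1, Nup155, lay on chromosome 2. At 0.25 there were 36, of which 8 were clustered protocadherins, 4 lay within 1500 kb and 24 lay elsewhere. Ndufa2, a subunit gene of respiratory complex I 689 kb before Pcdhb6, had r = 0.64 in the lower and 0.56 in the upper level. Arap3, 765 kb after it, had -0.35 and -0.61.

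**Figure D4:**
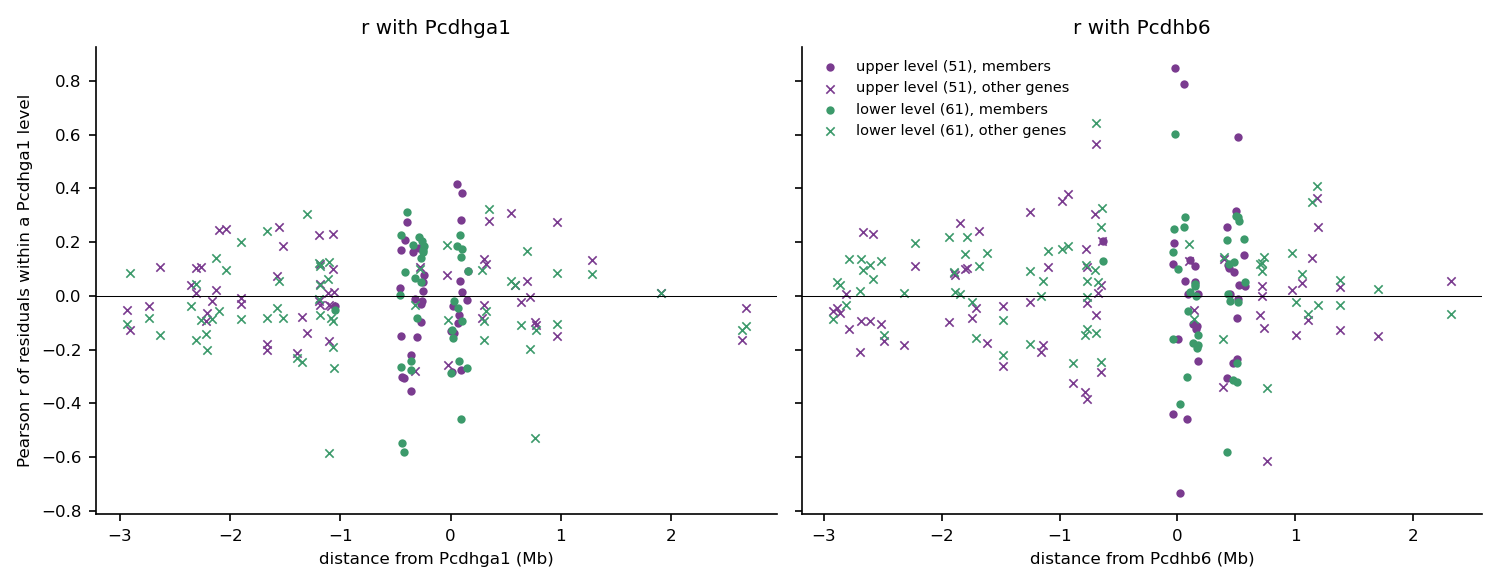
Pearson r with Pcdhga1 (one panel) and with Pcdhb6 (the other) against distance along chromosome 18 in Mb, within the lower and the upper level of Pcdhga1. Dots are clustered protocadherins and crosses are other genes nearby; dots of either sign stand away from 0, and the cross of Ndufa2 is high with Pcdhb6.

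The level of some genes went with marker lists, measured without removing components in the 112 libraries. In bulk tissue, fewer cells of a type and less RNA per cell cannot be told apart. The family held 315 relations, 35 genes against 9 lists. Pcdhgc3 went with the astrocyte list mean (r = 0.87, rho = 0.73, adjusted permutation p 0.000109, 0.83 without the 2 farthest libraries), at 0.90 in decimal and 0.70 in E21DCD and reassigned libraries. Pcdha4 went with the interneuron list (r = 0.76, rho = 0.55, adjusted p 0.000109, 0.66 without the 2), at 0.79 and 0.56, and against the astrocyte list (r = -0.74, rho = -0.54, adjusted p 0.000109, -0.64 without the 2), at -0.83 and -0.30. Pcdhgc5 went with the interneuron list (r = 0.74, rho = 0.61, adjusted p 0.000109, 0.71 without the 2), at 0.77 and 0.57. So both C-type genes were called, with opposite signs against the astrocyte list, where Pcdhgc5 had r = -0.58 (rho = -0.47, adjusted p 0.000109, -0.51 without the 2).

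Counted by size, 1 of the 35 genes had r of at least 0.3 with the astrocyte list and 9 had r of -0.3 or less, against 22.4% and 22.8% of all genes tested outside the list. With the interneuron list there were 12 and 1, against 22.1% and 20.9%. The microglia list gave 1 and 11, against 24% and 21.8%. The oligodendrocyte list gave 1 and 8, against 20.1% and 20.4%, and the endothelial list 1 and 7, against 18.6% and 19.2%. With the 7 libraries at the end of the first component kept, the counts were 1 and 2 for the astrocyte list, against 21.5% and 7.86%, and 32 and 1 for the interneuron list, against 45.4% and 17.3%. The mural list then gave 25 and 0, against 41.2% and 10.3%, and the glutamatergic list 25 and 0, against 38.3% and 7.58%.

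Decimal libraries were compared with E21DCD libraries by limma over all genes, with Benjamini-Hochberg adjustment. Over all libraries 0 genes of the cluster were higher and 1 was lower in decimal libraries, against 15.1% and 12.6% of the 15150 genes tested. The 1 was Pcdhgb8: decimal libraries had a lowest level of 2.66, a median of 5.40 and a highest of 5.89, and E21DCD libraries 4.73, 5.52 and 5.80. The difference was -0.16 ± 0.06 log2 (SE, 68 and 51 libraries, adjusted p 0.0384). The ranges overlap nearly whole. Without the striatal-like libraries no gene of the cluster passed, Pcdhgb8 having a difference of -0.12 (adjusted p 0.267), against 5.29% higher and 3.48% lower of all genes. At an unadjusted p under 0.05 there were 3 of the 35 genes, against 3485 of all 15150. The lowest adjusted p in the cluster was 0.0604.

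Without the 18 libraries 1 gene was higher and 10 were lower in decimal libraries, against 19.2% and 15% of all genes. Pcdhgc3 was the higher one, with 7.83, 8.09 and 8.87 in decimal and 7.76, 8.03 and 8.33 in E21DCD libraries (lowest, median, highest), a difference of 0.14 ± 0.04 (adjusted p 0.00176). Of the 10 lower genes, Pcdhga5 fell most, by 0.25 ± 0.06 (adjusted p 0.000304), with 2.58, 3.38 and 3.81 in decimal and 2.82, 3.64 and 4.05 in E21DCD libraries. Pcdhgc5 fell by 0.19 ± 0.04 (adjusted p 0.000595), Pcdhga7 by 0.20 ± 0.05 (adjusted p 0.00189), Pcdhga2 by 0.17 ± 0.06 (adjusted p 0.0117) and Pcdhb11 by 0.17 ± 0.04 (adjusted p 0.00221). The others were Pcdhb21, Pcdhga10, Pcdhgb8, Pcdhga12 and Pcdha4, which fell by 0.11 to 0.14. All these differences were under 0.3 log2, and the groups overlapped for each gene named with its range. Over all 68 and 51 libraries, the means of cell type lists, among them the astrocyte and interneuron lists with which Pcdhgc3, Pcdhgc5 and Pcdha4 move, were also entered as covariates. Pcdhgc3 then fell by 0.09 (adjusted p 0.0254), against a difference of 0.07 (adjusted p 0.256) over the same libraries with no covariate. In that fit 1 gene was higher and 8 were lower, against 7.92% and 15.2% of all genes. Pcdhga1 did not pass in the comparison of all libraries (difference -0.32 ± 0.24, adjusted p 0.341). The lowest difference of any of the 35 genes was -0.336 without the 18 libraries, in a gene that did not pass. It was -0.512 without the striatal-like libraries, where no gene of the cluster passed.

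**Figure D5:**
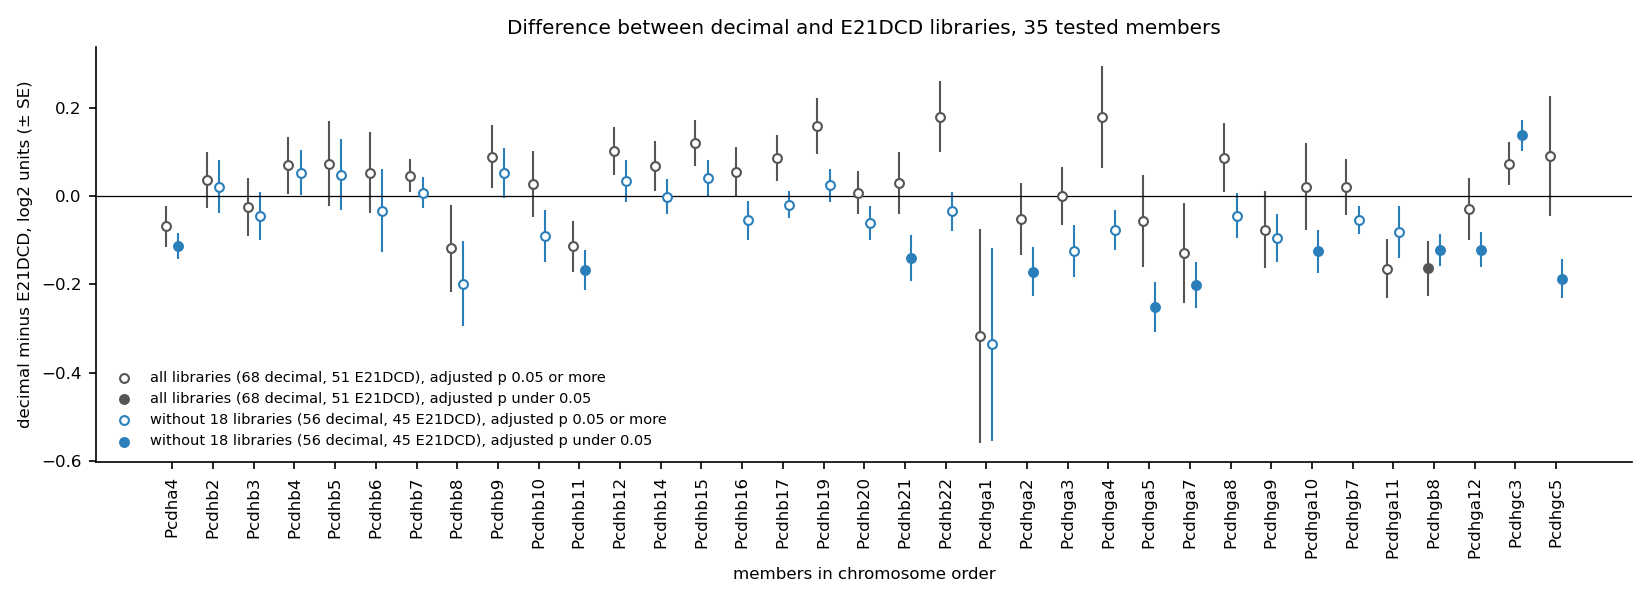
Difference in log2 level, decimal minus E21DCD, with its SE, for the 35 genes tested in chromosome order, over all libraries and without the 18. Filled points have an adjusted p under 0.05: 1 over all libraries and 11 without the 18.

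The last comparison set reassigned against other E21DCD libraries. No gene of the cluster passed, and 0 of 15150 genes did so in either direction (0% and 0%). At an unadjusted p under 0.05 there were 634 genes, 2 of the cluster. Pcdhgb8 averaged 5.64 ± 0.16 in reassigned and 5.47 ± 0.23 in E21DCD libraries (SD), a difference of 0.16 ± 0.07 (SE, adjusted p 0.912). The Pcdhga1 difference was 0.19 ± 0.43 (adjusted p 0.956).

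Genes that regulate or bind the cluster were listed with those of the actin and Wnt pathways that its proteins join. Of 42, all tested, 2 were higher and 1 was lower in decimal libraries, beside the shares of 15.1% and 12.6% of all genes given above, with a median difference of 0.03 against 0.01 for all genes and 0.03 for the 35 clustered genes. Stag2, a cohesin subunit, had 6.01 ± 0.26 in decimal and 5.88 ± 0.19 in E21DCD libraries (difference 0.12 ± 0.04, adjusted p 0.0228). Axin1 had 4.99 ± 0.20 and 4.90 ± 0.17 (0.09 ± 0.04, adjusted p 0.0456). Wasf1, a WAVE complex gene that drives actin branching, had 8.46 ± 0.23 and 8.58 ± 0.19 (-0.12 ± 0.04, adjusted p 0.0141). Without the striatal-like libraries 0 were higher and 1, Wasf1, was lower, against 5.29% and 3.48% of all genes. Without the 18 libraries 1 was higher and 7 were lower, against 19.2% and 15% of all genes, and Stag2 (0.06 ± 0.03, adjusted p 0.105) and Axin1 (0.02 ± 0.02, adjusted p 0.507) did not pass.

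Of the 11 unclustered protocadherins tested, 0 were higher and 3 were lower, beside 15.1% and 12.6% of all genes. Pcdh8, a cell adhesion gene induced by neuronal activity, fell by 0.39 ± 0.07 (adjusted p 2.64e-05), with 6.70 ± 0.43 in decimal and 7.10 ± 0.30 in E21DCD libraries. Pcdh19, which is mutated in a human epilepsy, fell by 0.34 ± 0.09 (adjusted p 0.00191), and Pcdh10 by 0.22 ± 0.06 (adjusted p 0.00717). Without the striatal-like libraries 1, Pcdh8, was lower, against 3.48% of all genes, and without the 18 libraries 7 were, against 15%.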

How the data were processed

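Polyadenylated RNA of the prelimbic cortex of rats was sequenced. Reads were quantified with kallisto 0.48, per the submitters' processing notes; strand and build are not given in the sources used here. The deposited values are log2 of an estimated count plus 1, for 38354 genes and 130 libraries; of 164 labelled samples, 34 have no column, 33 for want of a matching genotype and 1 removed, per the labels. Values were turned back, scaled to 1000000 per library and set as log2 plus 1. All 36 positions equal gene ends of the GRCr8 RefSeq table.

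Genes with a mean of at least 1 (15150) were fitted with limma 3.58.1 in R 4.3.3 (moderated, trend, two-sided, Benjamini-Hochberg), since the unit is log2 and count models were not used. The SD trend was a lowess (frac 0.3) on the mean. Correlations, two-sided, used 100000 permutations. Libraries were called striatal-like where the striatal mean exceeded the glutamatergic, and at the first component's end over a score of 0.2. Python 3.11.15, numpy 2.4.6, scipy 1.17.1 and matplotlib 3.10.9 were used. The methods were tested on simulated data.

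Members, lists and tests were chosen with earlier results of these data known. Named were the 2 highest and 2 lowest of each set, C-type genes, genes with separated levels or wide spread, the 5 largest differences each way, and the 5 highest and 5 lowest neighbouring pairs. Further names were picked with their values in view. Some alternatives were added after seeing the data: leaving out the 18 libraries for separated levels and correlation, splitting by the level of Pcdhga1, and counting correlations by a size of 0.3 beside the share of all genes or pairs.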

Additional observations from a re-analysis of the deposited data

How the results depend on the processing

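The count of clustered genes that differ between decimal and E21DCD libraries, 1 in all, was 3 with median-of-ratios scaling, 0 without the 11 striatal-like libraries with either scaling, 11 without the 18 libraries, 2 with library depth as a covariate and 9 with cell type list means as covariates; it was 1 with a pseudocount of 0.1, with no filter on low values (where the gene was Pcdhb1) and with a mean of at least 2. The Pcdhgc5 difference reversed to -0.19 without the 18 libraries, and that of Pcdhgc3 reversed to -0.09 with the list means. The count of separated genes, 3 in all, was 1 with means 5 SDs apart, 1 without the 18 libraries and 1 in decimal libraries alone. Neighbouring pairs called, 17 in all, were 27 with no component removed, 10 in decimal libraries alone, 10 in E21DCD and reassigned libraries alone, 7 within the lower level of Pcdhga1 and 2 within the upper. With no component removed the mean r was 0.38 among beta genes, 0.29 among gamma genes, 0.30 between them and 0.46 for Pcdha4, and r reversed to 0.32 for Pcdhga11 and Pcdhgb8 and to 0.60 for Pcdhga7 and Pcdhga8. The cause of these changes was not tested. Median-of-ratios scaling moved the library medians by -0.09 to 0.85 log2. With no component removed the call was also lost for Pcdhb8 and Pcdhb9 (-0.13), Pcdhgb7 and Pcdhga11 (-0.06), and Pcdhga10 and Pcdhgb7 (0.04). Of the recomputed values not reversed or given above as summaries, 24 summaries lay within 1.5 times the count or within the confidence half-width of a single r. That width is large beside a mean r near 0, so it tells little about how stable those means are. Of named genes or pairs, 86 values kept their direction and side of the threshold, while 11 lost (the 3 pairs just named among them) and 5 gained the threshold. Mean r near 0 changed sign among those 24: between beta and gamma genes it was 0.005 with 20 components removed and 0.01 without the 18 libraries, and for Pcdha4 it was -0.006 with 20 components. A like count need not hold the same genes: with median-of-ratios scaling Pcdhgc5 was separated and Pcdhb10 was not. No paired analysis was possible because replicate numbers follow the order of the samples and pair nothing.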
